A study of Mus musculus with 12 samples.

Results

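The comparison is of Bcl6 knockout (KO) with control thymocytes at the CD4+CD8+ double-positive (DP) stage, across all genes, by RNA sequencing. Its members are the libraries titled DP KO and DP control, 2 of each, which are 4 of the 12 libraries of the series. The KO genotype is given as Rag1KOBcl6fl/flLckCre+ and the control genotype as Rag1KOBcl6fl/flLckCre-, in mouse embryos of C57BL/6 background. Both genotypes are thus without Rag1 and have Bcl6 alleles flanked by loxP sites, and they differ in the presence of a Cre transgene named for the Lck gene, so that the effect of Cre itself and that of Bcl6 loss cannot be told apart. The labels give E16.5 (embryonic day) in one field and E17.5 in another. Thymi were kept for 2 days with 1 µg/ml antibody to CD3 before the DP cells and the CD8+CD4- immature single-positive (ISP) cells were isolated, and CD25-positive cells came from thymi without this treatment. The 8 ISP and CD25 libraries, 2 per genotype and population, share the fit and serve as comparison. The labels do not state if 2 libraries with the same title group had different embryos or cultures as their source, so each p-value measures only the spread between these samples. For the DP KO pair that spread may be technical, while the DP control libraries differed in Xist and Y-linked transcripts (below) and so did not hold the same mixture of embryos.

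Thymocytes without RAG1 cannot rearrange their antigen receptor genes and stop at the CD25-positive double-negative stage. Antibody to CD3 stands in for the pre-T cell receptor signal and moves them on through the ISP to the DP stage, with a burst of division followed by rest. BCL6 is a transcriptional repressor with a BTB-POZ domain and zinc fingers. It recruits corepressors such as BCOR and NCOR1, and it is best known for the germinal centre B cell and the follicular helper T cell. Its transcript is also present in DP thymocytes.

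The labels disagree with each other on these libraries. Beside its title, each library has a sequencing library name, and in 6 of the 8 anti-CD3 libraries population or genotype differ between that name and the title. By library name all 4 titled DP libraries are KO, 2 of them from DP and 2 from ISP cells. The titled DP KO libraries carry number 2 in their library names and the titled DP control libraries number 1, so the split by title is also a split by that number. Over the series the names would set 2 titled DP libraries, as DP KO, against 2 titled ISP libraries, as DP control, and no fit was made of that grouping. Titles, source names and genotype fields were followed, and the counts for gene lists are also given without the pair of titled DP libraries named as ISP, which are replicate 2 of each genotype. Cd4 measured 190.6 to 344 RPKM (reads per kilobase of gene, scaled for library size) in the 4 titled DP libraries and 13.9 to 20.5 RPKM in the 4 titled ISP libraries, so the population by title, not by library name, goes with the Cd4 level. Gh, which encodes growth hormone, had 59 and 93 reads in DP KO and 0 in both DP control libraries. Gh had 8 to 35 reads in the 4 KO libraries of the other populations and 0 in their 4 control libraries, so the genotype by title goes with the presence of Gh reads. Some transgenes driven by Lck sequences contain a growth hormone segment, and whether this one does is not given in the sources used here.

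The DP libraries held 11614030 and 9658167 reads assigned to genes in KO and 10373080 and 12090118 in control, and 10241 to 10310 genes reached 1 RPKM. At these depths 1 read in a gene of 1000 bases is worth 0.0819 to 0.1052 RPKM. The CD8 chain genes fitted the DP label in both genotypes, with Cd8b1 at 2274 and 2042 RPKM in DP KO and 2506 and 2495 RPKM in DP control. Neither Cd8b1 (adjusted p = 0.135) nor Cd8a (adjusted p = 0.276) passed the test between genotypes. The test was limma on log2(RPKM + 1), and a gene is called here when its Benjamini-Hochberg adjusted p over all 11303 genes tested was under 0.05. Every log2 change below is KO minus control on that scale, which understates the change of low genes. Fold changes are ratios of mean RPKM.

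Bcl6 itself measured 87.7 and 111 RPKM in DP KO and 72.5 and 70.0 RPKM in DP control. Both KO libraries lay above both control libraries, with a log2 change of 0.47 (SE 0.14, limma adjusted p = 0.0319). The value covers the whole gene and cannot show a deletion of some of its exons, so it does not check the genotype. The call was lost without DP KO 2 (log2 change 0.30, adjusted p = 0.279), without DP control 1 (adjusted p = 0.104) and without DP control 2 (adjusted p = 0.139). Without the pair of libraries named as ISP the log2 change was 0.27 (adjusted p = 0.509). In ISP cells the same gene measured 18.9 and 25.1 RPKM in KO and 11.9 and 11.6 RPKM in control, a log2 change of 0.84 (adjusted p = 0.0249). The rises in DP and ISP did not differ past the threshold (difference -0.37, SE 0.20, adjusted p = 0.294). CD25-positive cells held 1.49 to 2.01 RPKM in all 4 libraries, and the 3 populations did not overlap in either genotype, with the lowest levels in CD25-positive and the highest in DP cells.

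Bcl6 lies on the minus strand of chr16:23965052-23988852 (GRCm38, GENCODE M21). BCL6 protein is known to bind its own gene and repress it, through sites of the form TTCCNNGAA, which STAT factors also bind. The 250 bases before one of its 2 RefSeq starts (chr16:23981284-23981533, minus strand, GRCm38.p6, inside the GENCODE span of the gene) are shown because they hold 2 matches to these letters, in capitals, which begin 168 and 88 bases before the start. The same stretch of Pdlim4 (chr11:54069018-54069267, minus strand), the strongly expressed gene with the largest rise, is shown beside it and holds no match.

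Bcl6: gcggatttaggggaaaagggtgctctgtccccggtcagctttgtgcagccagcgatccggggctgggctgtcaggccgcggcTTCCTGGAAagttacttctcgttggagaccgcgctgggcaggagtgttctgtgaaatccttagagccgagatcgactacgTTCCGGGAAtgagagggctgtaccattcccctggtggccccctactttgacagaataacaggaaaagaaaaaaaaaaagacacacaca

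Pdlim4: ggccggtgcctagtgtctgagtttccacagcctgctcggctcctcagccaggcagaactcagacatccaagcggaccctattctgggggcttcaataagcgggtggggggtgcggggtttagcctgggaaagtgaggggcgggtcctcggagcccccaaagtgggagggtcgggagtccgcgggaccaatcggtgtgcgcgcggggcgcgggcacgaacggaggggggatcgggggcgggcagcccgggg

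Over all 32851 RefSeq promoter windows (250 bases before to 50 after a start, both strands searched), 4.81% held the letters. Among genes with a window, 6.05% of the 1206 called higher in DP KO and 5.19% of the 674 called lower held them, beside 5.7% of all 8512 genes tested. The share was thus close to that of all genes in both directions. A match is a run of letters, not a bound site.

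Across the genome 2476 of 11303 genes (21.9%) were called between DP KO and DP control. Of these, 1597 were higher in KO (14.1% of genes tested) and 879 were lower (7.78%). The libraries are bulk RNA of sorted cells, in which fewer cells of a type and less RNA per cell cannot be told apart. Most of the differences were small, with a median log2 change of 0.37 among genes called higher and -0.42 among genes called lower, and 1773 of the calls lay within 0.5. A log2 change of at least 1 was seen for 72 genes called higher and 24 called lower. The KO and control libraries did not overlap for any of the 2476 called genes, beside 62.3% of all genes tested. DP KO 2 lay farther from the control mean than DP KO 1 for 2029 of them (81.9%), beside 65.6% of all genes.

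The balance of directions depended on the scaling. On the authors' scale the median log2 change of all genes was 0.0009 and 64.5% of calls were higher in KO. With every library scaled to a common sum, the median of all genes was -0.08 and 953 genes were called higher and 1770 lower, so that 35% of calls were higher. A fit of the 4 DP libraries alone, which leaves 2 residual degrees of freedom, called 0 genes by limma at the adjusted threshold, with 3481 genes at an unadjusted p under 0.05. Without the pair of libraries named as ISP, 203 genes were called higher and 35 lower, with the 1 remaining library per group taken to vary like the other groups. Leaving out DP KO 2 alone gave 824 calls, DP control 1 alone 1102, and DP control 2 alone 1175.

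**Figure D1:**
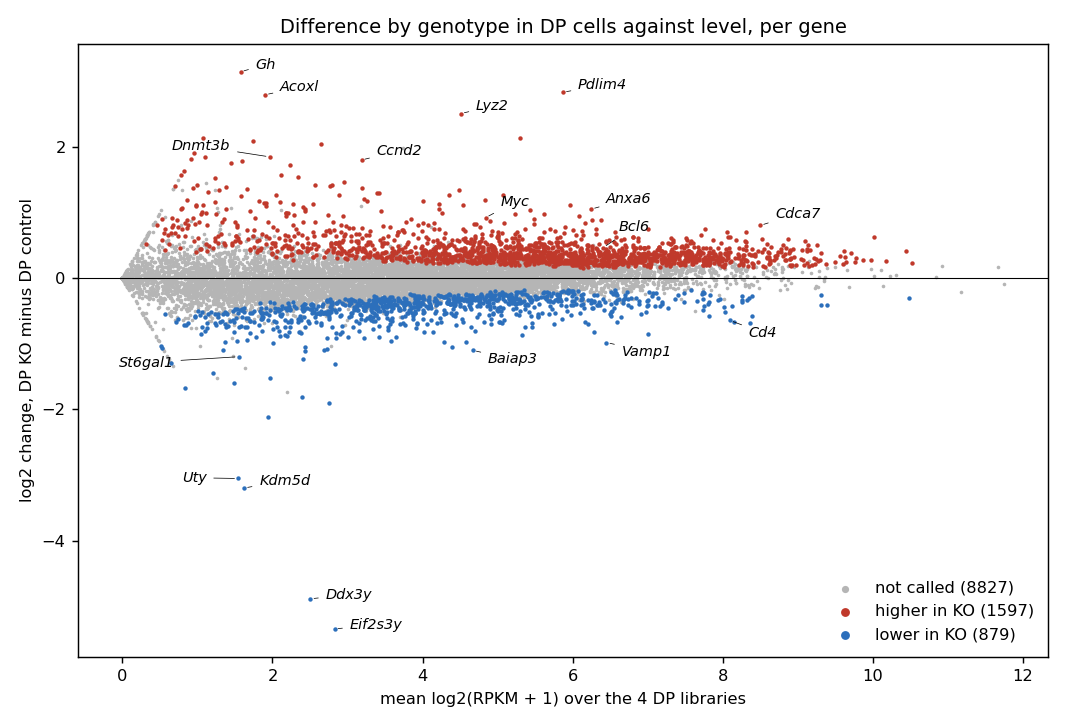
Each point is 1 of the 11303 genes tested; the horizontal axis is its mean log2(RPKM + 1) over the 4 DP libraries and the vertical axis its log2 change, DP KO minus DP control. Red points (1597) were called higher in KO and blue points (879) lower; most lie within 0.5 of zero, and the 4 Y-linked genes at the bottom have the largest falls.

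The largest rise at a substantial level was that of Pdlim4, which encodes a PDZ and LIM domain protein of the actin cytoskeleton. It measured 130.4 and 186 RPKM in DP KO and 20.9 and 20.9 RPKM in DP control. The KO libraries stood far above the controls, 7.55-fold by mean (log2 change 2.84, SE 0.14, limma adjusted p = 1.67e-06). Acoxl, an acyl-CoA oxidase-like gene, measured 7.45 and 10.48 RPKM in DP KO and 0.432 and 0.401 RPKM in DP control. It was thus near the floor in both controls and 21.5-fold higher in KO (log2 change 2.80, SE 0.17, adjusted p = 5.03e-06). Gh, with 0 reads in both controls, was at least 54.6-fold higher in DP KO, taking 3 reads over the control group as the floor.

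Ccnd2, which encodes the G1 cyclin D2, measured 14.99 and 17.1 RPKM in DP KO and 4.39 and 3.40 RPKM in DP control (4.11-fold, log2 change 1.80, SE 0.13, adjusted p = 3.03e-05). Dnmt3b, a de novo DNA methyltransferase, measured 4.94 and 8.19 RPKM in DP KO and 1.08 and 1.02 RPKM in DP control (6.26-fold, log2 change 1.85, SE 0.16, adjusted p = 8.1e-05). In both genes the libraries of a genotype kept together and the genotypes lay apart. Both genes had higher levels in earlier stages, where control libraries held 50.9 and 60.04 RPKM of Ccnd2 and 31.8 and 33.4 RPKM of Dnmt3b in CD25-positive cells. Bcl2l14, a BCL2 family gene, had the same order of stages and rose in DP KO to 6.14 and 9.47 RPKM, against 2.14 and 1.81 RPKM in DP control (adjusted p = 0.000291). Myl10, a myosin light chain gene, rose to 12.9 and 10.9 RPKM in DP KO, against 4.20 and 3.14 RPKM in DP control, with control CD25-positive cells at 252 and 207 RPKM.

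Other single genes also had rises of more than 3-fold. Acsl1, a long-chain acyl-CoA synthetase, measured 7.82 and 9.79 RPKM in DP KO and 2.11 and 3.22 RPKM in DP control (adjusted p = 0.000273). Pcyt1a, which makes the activated choline used for phosphatidylcholine, measured 9.07 and 11.8 RPKM in DP KO and 2.91 and 3.56 RPKM in DP control (adjusted p = 0.000827). Lpp, a LIM protein of cell adhesions, measured 8.14 and 12.4 RPKM in DP KO and 3.296 and 3.09 RPKM in DP control (adjusted p = 0.000295). Gpr25, an orphan G protein-coupled receptor, measured 4.18 and 8.16 RPKM in DP KO and 0.679 and 0.543 RPKM in DP control (adjusted p = 0.000291). The genotypes did not overlap in any of these, and DP KO 2 was the higher KO library in each.

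Among genes averaging at least 50 RPKM, Anxa6, an annexin of calcium-dependent membrane binding, rose to 102 and 116 RPKM in DP KO, against 51.3 and 52.2 RPKM in DP control (2.1-fold, adjusted p = 2.18e-05). Cdca7, which acts with the chromatin remodeller HELLS, measured 439 and 521 RPKM in DP KO and 269 and 278 RPKM in DP control (adjusted p = 0.000136). Shmt2, the mitochondrial serine hydroxymethyltransferase of one-carbon metabolism, measured 82.1 and 72.9 RPKM in DP KO and 48.6 and 40.7 RPKM in DP control (adjusted p = 0.000509). Within each of these genes the libraries of a genotype lay close to each other relative to the gap between genotypes. Snai3, a Snail family repressor, and Arhgap9, a GTPase-activating protein, rose by 0.89 and 0.85 on the log2 scale.

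The largest falls were those of Y-linked genes, given with the other sex-linked genes below. Of autosomal protein-coding genes, Tdrp measured 4.20 and 2.90 RPKM in DP KO and 10.4 and 10.0 RPKM in DP control (log2 change -1.31, SE 0.20, adjusted p = 0.00145). Baiap3, which is known for a role in vesicle exocytosis, measured 18.8 and 14.3 RPKM in DP KO and 37.0 and 35.6 RPKM in DP control (log2 change -1.10, SE 0.11, adjusted p = 0.00024). Both controls lay well above both KO libraries in each. Arap2, an Arf GTPase-activating protein, and Lrig1, a negative regulator of receptor tyrosine kinases, fell by 1.09 and 1.07. Tspan32, a tetraspanin of blood cells, measured 12.6 and 14.7 RPKM in DP KO and 27.3 and 31.3 RPKM in DP control (adjusted p = 0.00283). The short RNAs Snord118, Rmrp and Mir6973a and the class Ib gene H2-Q2 were also among the 15 largest falls, but short transcripts and close paralogs are uncertain in such counts, and each of the 4 lost its call without at least 1 DP library (adjusted p of 0.0748 to 0.276 where lost).

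At high levels, Vamp1, a vesicle SNARE, fell to 71.7 and 52.4 RPKM in DP KO, against 128 and 116 RPKM in DP control (log2 change -0.98, SE 0.13, adjusted p = 0.000526). Txnip, the thioredoxin-interacting protein that restrains glucose uptake, fell to 108 and 82.7 RPKM in DP KO, against 172 and 169 RPKM in DP control (adjusted p = 0.00113). Bcat2, the mitochondrial branched-chain aminotransferase, measured 60.7 and 52.9 RPKM in DP KO and 90.2 and 95.9 RPKM in DP control (adjusted p = 0.00052). For all 3 genes the control libraries lay above both KO libraries, and DP KO 2 was the lower of the KO pair.

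**Figure D2:**
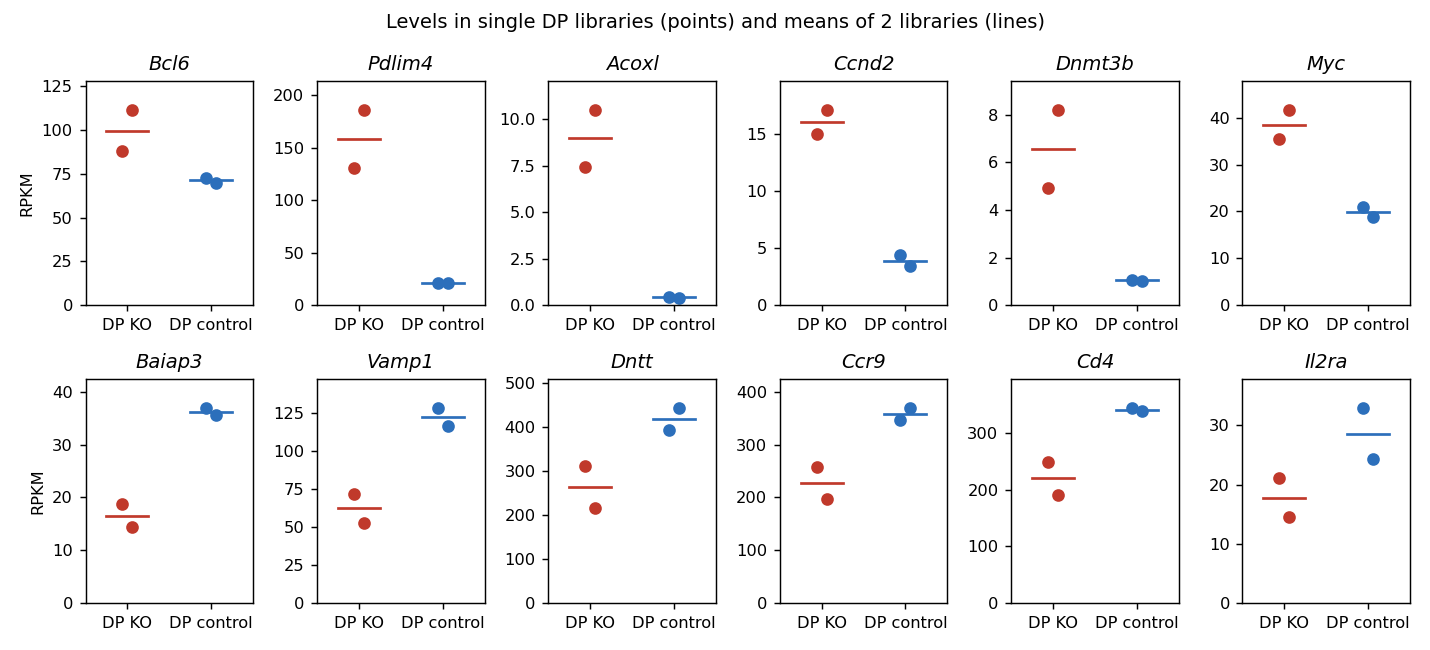
Points are RPKM in single libraries and lines are means of 2 libraries, with DP KO (red) left of DP control (blue) in each panel; every vertical axis starts at 0. The 6 genes of the upper row are higher in both KO libraries and the 6 of the lower row lower, as for Pdlim4 (130.4 and 186 in KO, 20.9 and 20.9 in control) and Vamp1 (71.7 and 52.4 in KO, 128 and 116 in control).

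Genes of DNA replication and cell division were higher in DP KO almost throughout. Of 45 S phase genes tested, 43 were called higher and 0 lower, with a median log2 change of 0.48, beside 14.1% called higher and a median of 0.0009 over all genes. Pcna, the sliding clamp of DNA polymerase, measured 308 and 360 RPKM in DP KO and 215 and 216 RPKM in DP control (log2 change 0.63, SE 0.07, limma adjusted p = 0.000291). The replicative helicase gene Mcm3 measured 113 and 122 RPKM in DP KO and 72.1 and 79.4 RPKM in DP control, and Mcm5 and Gins2, of the same helicase complex, rose by 0.57 and 0.78. In each of these the higher control lay well below the lower KO library. The S phase count ranged from 33 to 42 without 1 DP library and was 17 without the pair named as ISP.

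Of 56 G2 and mitosis genes tested, 45 were called higher and 0 lower, with a median log2 change of 0.36. Cdk1, the kinase that drives mitosis, measured 101 and 117 RPKM in DP KO and 71.7 and 72.7 RPKM in DP control (log2 change 0.58, SE 0.07, adjusted p = 0.000313). Aurka, a spindle kinase, measured 125 and 153 RPKM in DP KO and 88.3 and 90.8 RPKM in DP control (adjusted p = 0.000509). For both genes the gap between the genotypes exceeded the difference between the KO libraries. The count of the list was 23 without DP KO 2, 25 without DP control 1 and 7 without the pair named as ISP. With libraries scaled to a common sum, 36 S phase and 34 G2 and mitosis genes were called higher and 0 lower. In both lists, and in the ribosomal protein, oxidative phosphorylation, cholesterol synthesis and interferon response lists below, 0 members were lower even at an unadjusted p under 0.05 in limma, and voom on the recovered reads called 0 lower.

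Genes of protein synthesis, respiration and sterol synthesis also rose as groups, by smaller amounts. Of 40 ribosomal protein genes, 30 were called higher and 0 lower (median log2 change 0.26), and Rpl3 measured 199 and 208 RPKM in DP KO and 154 and 153 RPKM in DP control (adjusted p = 0.00184). With a common sum 13 of the 40 were called, and without DP KO 2, DP control 1 or DP control 2 the count was 12, 9 or 12. Of 27 genes of oxidative phosphorylation, 18 were called higher and 0 lower (median 0.27). Cycs, which encodes cytochrome c, measured 21.8 and 24.3 RPKM in DP KO and 14.8 and 14.7 RPKM in DP control (log2 change 0.61, SE 0.08, adjusted p = 0.000713). That count was 7, 6 and 10 without DP KO 2, DP control 1 and DP control 2, and 13 with a common sum.

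Of 22 cholesterol synthesis genes, 14 were called higher and 0 lower (median log2 change 0.29). Mvd, of the mevalonate pathway, measured 31.5 and 35.1 RPKM in DP KO and 22.8 and 20.1 RPKM in DP control (log2 change 0.61, SE 0.08, adjusted p = 0.000499). Cyp51, the lanosterol demethylase, and Fdps, which makes farnesyl diphosphate, rose by 0.57 and 0.54. The cholesterol count was 7, 9 and 8 without DP KO 2, DP control 1 and DP control 2, and 8 with a common sum. Without the pair of libraries named as ISP the counts were 1 for ribosomal proteins, 0 for oxidative phosphorylation and 2 for cholesterol synthesis. Of 24 glycolysis genes, 0 were called higher (1 at an unadjusted p under 0.05, 0 by voom) and 3 lower, with a median of 0.01, and 1 was lower without the pair named as ISP. The 3 were Pfkm, a phosphofructokinase subunit (log2 change -0.59), Slc2a3, a glucose transporter (-0.57), and the enolase gene Eno2, at 1.30 and 0.865 RPKM in DP KO and 2.72 and 2.14 RPKM in DP control, which lost its call without DP KO 2 (adjusted p = 0.151) or DP control 1 (adjusted p = 0.132).

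**Figure D3:**
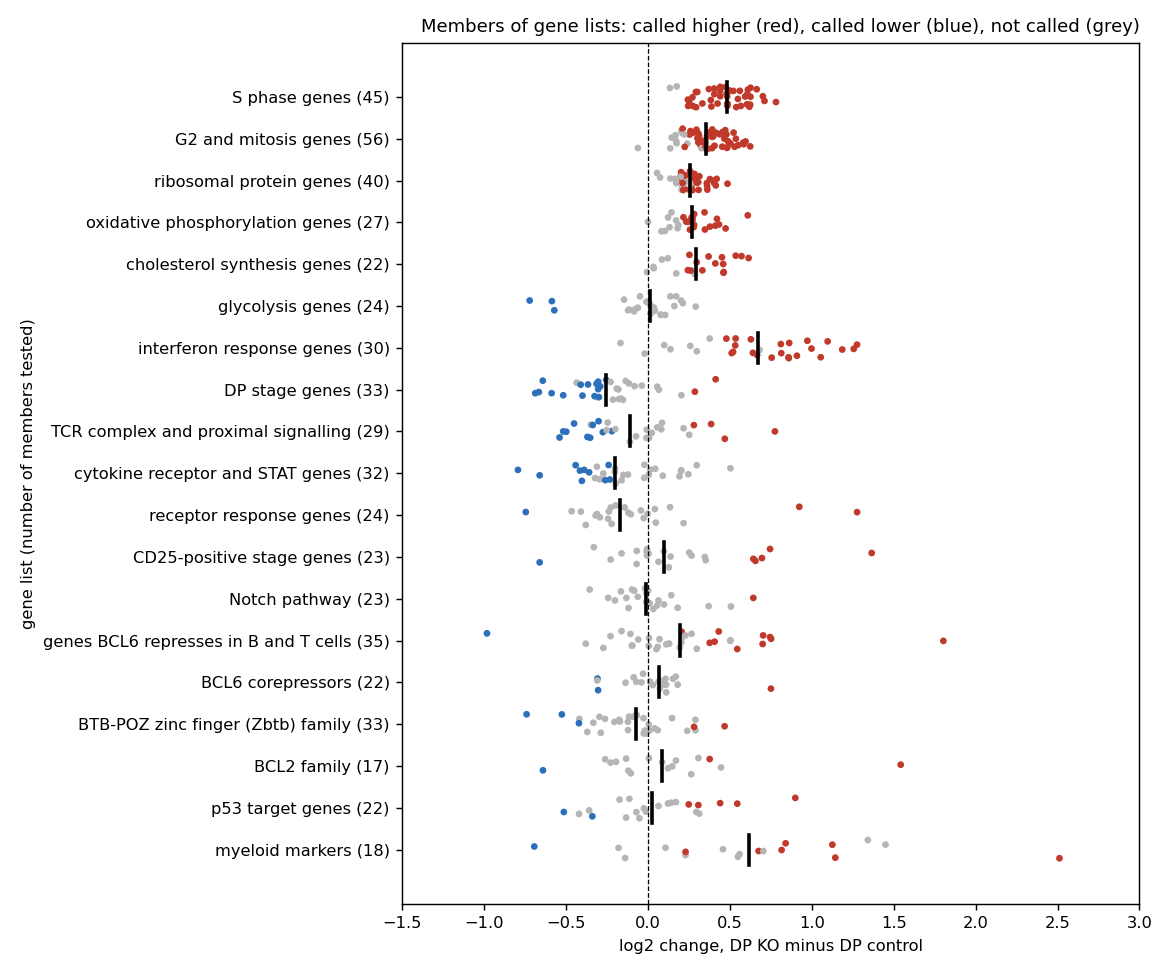
Each point is 1 member of a gene list, placed by its log2 change, DP KO minus DP control (red called higher, blue called lower, grey not called); black bars are list medians and the dashed line is the median of all genes, 0.0009. S phase genes (median 0.48) and interferon response genes (median 0.67) lie to the right and DP stage genes (median -0.26) to the left.

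Genes that define the DP stage moved the other way. Of 33 DP stage genes tested, 15 were called lower and 2 higher, with a median log2 change of -0.26, beside 7.78% of all genes called lower. Arpp21, an RNA-binding protein gene of DP thymocytes, measured 93.5 and 90.3 RPKM in DP KO and 122 and 121 RPKM in DP control (log2 change -0.40, SE 0.06, limma adjusted p = 0.00132). Cd4 measured 249 and 190.6 RPKM in DP KO and 344 and 338 RPKM in DP control (log2 change -0.64, SE 0.18, adjusted p = 0.0253), and its call was lost without DP KO 2, DP control 1 or DP control 2 (adjusted p of 0.0964 to 0.232). The KO libraries were below both controls for each of these genes.

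Dntt, the terminal transferase that adds bases at receptor gene joints, measured 311 and 215 RPKM in DP KO and 393 and 442 RPKM in DP control (log2 change -0.69, SE 0.16, adjusted p = 0.00972). Ccr9, the receptor for the thymic chemokine CCL25, measured 258 and 197 RPKM in DP KO and 348 and 370 RPKM in DP control (log2 change -0.67, SE 0.15, adjusted p = 0.00883). DP KO 2 was the lowest library for both. Both calls were lost without DP KO 2 (adjusted p = 0.101 for Dntt and 0.102 for Ccr9) and without DP control 2 (adjusted p = 0.0725 for Dntt and 0.0584 for Ccr9). Tcf7, which encodes the T cell factor TCF1, fell by 0.30, and its call was lost without DP control 2 (adjusted p = 0.0569). The members called higher were Runx1, a Runt family transcription factor (log2 change 0.29, lost without DP KO 2 with adjusted p = 0.155 or DP control 1 with adjusted p = 0.165), and Cd24a, a surface antigen of immature thymocytes, at 212 and 216 RPKM in DP KO and 164 and 157 RPKM in DP control. The count of DP stage genes called lower was 2 without DP KO 2, 8 without DP control 1, 5 without DP control 2, 0 without the pair named as ISP, and 22 with a common sum.

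Among 29 genes of the T cell receptor complex and its proximal signalling, 10 were called lower and 4 higher (median log2 change -0.11), beside 7.78% of all genes called lower and 14.1% called higher. The higher members were thus about as frequent as among all genes. The costimulatory receptor gene Cd28 measured 59.7 and 59.5 RPKM in DP KO and 82.6 and 81.1 RPKM in DP control (log2 change -0.45, SE 0.07, adjusted p = 0.0013). Cd2, an adhesion receptor gene, fell by 0.50. The phospholipase gene Plcg1 had a log2 change of -0.37, a call that was lost without DP KO 2, DP control 1 or DP control 2 (adjusted p of 0.0662 to 0.162). The ubiquitin ligase gene Cblb, a brake on receptor signalling, was higher at 12.6 and 16.6 RPKM in DP KO, against 8.82 and 7.37 RPKM in DP control (log2 change 0.77, SE 0.13, adjusted p = 0.00235). Syk, Lcp2 and Ptpn6 were the other members called higher, each lost without at least DP KO 2 and DP control 1 (adjusted p of 0.059 to 0.18). The lower count was 2 without DP KO 2, 6 without DP control 1, 3 without DP control 2 and 0 without the pair named as ISP, and the higher count 1 to 3 without 1 DP library and 0 without that pair. With a common sum 12 were called lower and 2 higher.

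Cytokine receptor and STAT genes were lower where they were called, 10 of 32 with 0 higher by limma (1 at an unadjusted p under 0.05, 2 by voom) and a median of -0.20, beside 7.78% of all genes called lower. Stat3, a transcription factor downstream of IL-6 family receptors, measured 49.7 and 48.0 RPKM in DP KO and 66.4 and 63.5 RPKM in DP control (log2 change -0.40, SE 0.07, adjusted p = 0.00226). Jak1, its upstream kinase, fell by 0.36. Il6st, the shared receptor chain gp130, measured 10.1 and 5.94 RPKM in DP KO and 13.2 and 15.3 RPKM in DP control, and its call was lost without DP KO 2 (adjusted p = 0.0676) or DP control 2 (adjusted p = 0.0697). The count was 3, 5 and 5 without DP KO 2, DP control 1 and DP control 2, and 1 without the pair named as ISP.

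Genes listed for the earlier CD25-positive stage gave calls in both directions. Of 23 tested, 5 were called higher and 1 lower, with a median of 0.10, beside 14.1% of all genes called higher and 7.78% called lower. The higher count was 3, 2, 4 and 3 without DP KO 1, DP KO 2, DP control 1 and DP control 2, and 1 was higher and 1 lower without the pair named as ISP. Tcf7l2, a relative of Tcf7, measured 3.296 and 4.97 RPKM in DP KO and 0.960 and 0.971 RPKM in DP control (log2 change 1.37, SE 0.17, adjusted p = 0.000509). Gzma, the granzyme A gene, measured 146 and 187 RPKM in DP KO and 103 and 93.2 RPKM in DP control (adjusted p = 0.000993). These 2 are not markers of that stage alone here. Gzma measured 362 to 495 RPKM in CD25-positive and 820 to 938 RPKM in ISP libraries. Tcf7l2 was higher in both DP KO libraries than in any CD25-positive library (2.07 to 3.10 RPKM). Il2ra, which encodes CD25, went the other way, at 21.1 and 14.5 RPKM in DP KO and 33.0 and 24.3 RPKM in DP control (log2 change -0.66, SE 0.16, adjusted p = 0.0127). That call was lost without DP KO 2 (adjusted p = 0.135) or DP control 1 (adjusted p = 0.115). Of 23 Notch pathway genes 1 was called higher and 0 lower (1 at an unadjusted p under 0.05, 0 by voom), the Notch target Hes1 at 8.98 and 8.33 RPKM in DP KO and 6.81 and 3.89 RPKM in DP control (adjusted p = 0.0196), lost without DP KO 1, DP KO 2 or DP control 2 (adjusted p of 0.0752 to 0.138). No Notch pathway gene was called without the pair named as ISP, and 2 were called higher without DP control 1.

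Of 24 genes that respond to receptor stimulation, 2 were called higher and 1 lower (median -0.17), beside 14.1% and 7.78% of all genes. Voom and a common sum each called 2 higher and 4 lower, and in limma 4 were lower at an unadjusted p under 0.05. Without the pair named as ISP 1 was called higher and 0 lower, and without DP KO 1 alone 2 were called lower. Myc, which drives growth and division, measured 35.5 and 41.6 RPKM in DP KO and 20.9 and 18.8 RPKM in DP control (log2 change 0.92, SE 0.08, adjusted p = 0.000103). Dusp5, a phosphatase of the nuclear MAP kinase ERK, measured 23.9 and 39.4 RPKM in DP KO and 12.7 and 11.5 RPKM in DP control (log2 change 1.28, SE 0.23, adjusted p = 0.00282). Dusp6, the cytoplasmic ERK phosphatase, measured 9.04 and 7.03 RPKM in DP KO and 14.9 and 13.2 RPKM in DP control (adjusted p = 0.024). The pair of ERK phosphatases thus lay on opposite sides, and the Dusp6 call was lost without DP KO 2 (adjusted p = 0.192), DP control 1 (adjusted p = 0.129) or DP control 2 (adjusted p = 0.0683).

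Among 35 genes that BCL6 is known to repress in B and T cells, 10 were called higher and 1 lower, with a median log2 change of 0.19, beside 14.1% of all genes called higher and 7.78% called lower. The largest rise was that of Ccnd2, given above. Chek1, the checkpoint kinase that acts on replication stress, measured 15.4 and 17.1 RPKM in DP KO and 9.82 and 9.40 RPKM in DP control (log2 change 0.70, SE 0.10, limma adjusted p = 0.000779). Selplg, the selectin ligand PSGL-1, measured 311 and 370 RPKM in DP KO and 217 and 200 RPKM in DP control (adjusted p = 0.000382). For both genes the KO libraries lay above the controls. Cdkn1a, the cell cycle inhibitor p21, had a log2 change of 0.54 and lost its call without DP KO 1 (adjusted p = 0.304) or DP control 1 (adjusted p = 0.298). The NF-κB subunit gene Nfkb1 and the AP-1 family gene Batf had log2 changes of 0.41 and 0.43, and both lost their calls without DP KO 2, DP control 1 or DP control 2 (adjusted p of 0.0758 to 0.326), Nfkb1 also without DP KO 1 (adjusted p = 0.053).

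Several other members of that list were less firm or did not move. Bcl2, which blocks apoptosis, measured 4.39 and 4.57 RPKM in DP KO and 3.00 and 3.46 RPKM in DP control (adjusted p = 0.0243), and lost its call without DP KO 2 (adjusted p = 0.126) or DP control 1 (adjusted p = 0.158). Klf2, a regulator of thymic exit, was the member called lower, at 2.90 and 1.10 RPKM in DP KO and 4.03 and 5.36 RPKM in DP control (adjusted p = 0.011). It lost its call without DP KO 2 (adjusted p = 0.085) or DP control 2 (adjusted p = 0.087). Cell cycle genes form part of the list, and 24 of its 35 members were not called. The higher count was 6, 4, 3 and 5 without DP KO 1, DP KO 2, DP control 1 and DP control 2, 3 without the pair named as ISP, and 5 with a common sum.

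Partners and relatives of BCL6 were called in both directions, in shares below the 21.9% of all genes. Of 22 corepressor genes 1 was called higher and 2 lower, and none was called without the pair named as ISP. Hdac4, a class IIa deacetylase, measured 22.4 and 24.2 RPKM in DP KO and 14.3 and 12.6 RPKM in DP control (log2 change 0.75, SE 0.14, adjusted p = 0.00349). The nuclear corepressor gene Ncor1 and the deacetylase gene Hdac7 each had a log2 change of -0.31, and both calls were lost without DP KO 2, DP control 1 or DP control 2 (adjusted p of 0.0706 to 0.12). Of 33 BTB-POZ zinc finger genes, Bcl6 among them, 2 were called higher and 3 lower. The higher count was 0 without DP KO 2, DP control 1 or DP control 2, and 0 were higher and 1 lower without the pair named as ISP. With a common sum 0 were called higher and 8 lower. Zbtb20 measured 3.94 and 4.87 RPKM in DP KO and 7.93 and 8.07 RPKM in DP control (adjusted p = 0.00226), and Zbtb44 fell by 0.53.

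Survival and p53 target genes were called in both directions, beside 14.1% of all genes called higher and 7.78% called lower. Of 17 BCL2 family genes, Bcl2l14 and Bcl2 were called higher, and Bmf, a BH3-only promoter of apoptosis, was called lower at 15.4 and 10.6 RPKM in DP KO and 20.95 and 20.2 RPKM in DP control. Bmf lost its call without DP KO 2 (adjusted p = 0.104) or DP control 1 (adjusted p = 0.0665). The higher count of the family was 3, 1, 1 and 2 without DP KO 1, DP KO 2, DP control 1 and DP control 2, and 1 was higher and 0 lower without the pair named as ISP. Of 22 p53 target genes, 5 were called higher and 2 lower (median 0.03), beside 14.1% and 7.78% of all genes. The counts were 3 higher and 2 lower without DP KO 1, 2 and 0 without DP KO 2, 0 and 1 without DP control 1, 3 and 1 without DP control 2, and 1 and 0 without the pair named as ISP. Trp53inp1, a stress-induced p53 cofactor, measured 240.2 and 199 RPKM in DP KO and 299 and 328 RPKM in DP control. Its call (adjusted p = 0.00678) was lost without DP KO 2 (adjusted p = 0.0812) or DP control 2 (adjusted p = 0.058). With a common sum 1 p53 target was called higher and 5 lower.

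Of 23 migration and egress genes, 3 were called higher, among them Selplg and the chemokine receptor gene Ccr4, and 5 lower, among them Ccr9 and the integrin gene Itgal (log2 change -0.34, adjusted p = 0.00288), beside 14.1% of all genes called higher and 7.78% lower. The counts were 2 higher and 6 lower without DP KO 1, 2 and 1 without DP KO 2, 3 and 3 without DP control 1, 1 and 1 without DP control 2, and 1 and 0 without the pair named as ISP. Ccr4 had a log2 change of 0.81 and lost its call without DP KO 2 (adjusted p = 0.23) or DP control 2 (adjusted p = 0.205). Of 18 cytotoxic and effector genes, Gzma, Ccl3 and Serpinb9 were called higher, a share near the 14.1% of all genes, and 0 lower by limma (1 at an unadjusted p under 0.05, 0 by voom). The Serpinb9 call was lost without DP KO 2 (adjusted p = 0.299) or DP control 1 (adjusted p = 0.269). The chemokine gene Ccl3 was low, at 0.764 and 1.86 RPKM in DP KO and 0.361 and 0.311 RPKM in DP control, and lost its call without DP KO 2, DP control 1 or DP control 2 (adjusted p of 0.108 to 0.297). Of the cytotoxic and effector genes 1 to 3 were called higher without 1 DP library, 3 were called lower without DP KO 1, and none was called without the pair named as ISP. Of 7 E protein and Id genes 1 was called, Tcf12, which encodes the E protein HEB (log2 change -0.31, lost without DP KO 2 with adjusted p = 0.0915 or DP control 2 with adjusted p = 0.0789). Of 3 long nuclear RNAs Neat1 was called lower (-0.65, lost without DP KO 2 with adjusted p = 0.0801 or DP control 2 with adjusted p = 0.0522). Over all genes 21.9% were called, and neither of these 2 lists gave a call without the pair named as ISP.

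Interferon response genes were higher in DP KO as a group. Of 30 tested, 22 were called higher and 0 lower, with a median log2 change of 0.67, beside 14.1% of all genes called higher. Rtp4 measured 50.1 and 52.1 RPKM in DP KO and 26.0 and 16.2 RPKM in DP control (log2 change 1.28, SE 0.16, limma adjusted p = 0.000553). Bst2, the virus-tethering protein tetherin, measured 286 and 278 RPKM in DP KO and 181 and 153 RPKM in DP control (log2 change 0.75, SE 0.09, adjusted p = 0.00031). Oas2, a 2′-5′ oligoadenylate synthetase, measured 3.304 and 3.97 RPKM in DP KO and 0.787 and 1.10 RPKM in DP control (log2 change 1.26, SE 0.18, adjusted p = 0.001). Both KO libraries exceeded both controls in these genes, and DP control 2 was the lower control for Rtp4 and Bst2. The count was 10 without DP KO 2, 11 without DP control 2 and 4 without the pair named as ISP.

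Some markers of other cell types differed by genotype in the same libraries. Of 18 myeloid markers tested 7 were called higher and 1 lower (median log2 change 0.62), beside 14.1% and 7.78% of all genes. The summed level of the 20 in the table was 282 and 312 RPKM in DP KO and 201 and 193 RPKM in DP control. Lyz2, the macrophage lysozyme, measured 43.8 and 65.2 RPKM in DP KO and 13.03 and 5.50 RPKM in DP control (adjusted p = 0.00112), and no member was at 0 in all 4 libraries. The myeloid count was 3, 2 and 2 without DP KO 2, DP control 1 and DP control 2, and 1 without the pair named as ISP. The 12 NK and innate lymphoid markers summed to 26.5 and 30.2 RPKM in DP KO and 14.02 and 10.7 RPKM in DP control. Most of this came from Tyrobp (14.9 and 16.0 RPKM in DP KO, 6.38 and 5.06 RPKM in DP control) and Fcer1g (8.52 and 12.95 RPKM in DP KO, 4.91 and 2.86 RPKM in DP control). Each other member was at most 1.23 RPKM in all 4 libraries. Ncr1 was lower in KO, at 0 and 0.0719 RPKM in DP KO and 0.844 and 0.224 RPKM in DP control. Of 8 tested, Tyrobp and Fcer1g were called higher, beside 14.1% of all genes, and 0 lower (1 at an unadjusted p under 0.05, 1 by voom). Fcer1g lost its call without DP KO 2 (adjusted p = 0.0646), and Klra1 was at 0 in all 4. Without the pair named as ISP 1 NK and innate lymphoid marker was called higher. Sums of gamma delta T cell markers were 4.00 and 4.27 RPKM in DP KO and 3.05 and 3.43 RPKM in DP control. The part of these cells in the interferon and other differences was not tested.

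The remaining marker lists had few members tested. These were 3 for B lineage, 5 for thymic epithelium, 2 each for mesenchyme, endothelium and mast cells, and 0 for erythroid cells. The gamma delta list had 5. Over all genes tested 21.9% were called, and with so few members a low count of calls does not show an absence of difference. B lineage markers summed to 52.2 and 59.2 RPKM in DP KO and 64.7 and 53.1 RPKM in DP control, mostly from Cd79b, with Pax5 and Ms4a1 at 0 in all 4 libraries. Thymic epithelium markers summed to 47.0 and 43.7 RPKM in DP KO and 48.1 and 40.4 RPKM in DP control, with Foxn1 and Krt14 at 0. Endothelium markers summed to 36.5 and 33.8 RPKM in DP KO and 43.5 and 45.6 RPKM in DP control, mostly from Pecam1, with Cdh5, Tek and Emcn at 0. Mesenchyme markers summed to 16.1 to 19.0 RPKM, and erythroid and mast cell markers to at most 3.20 RPKM, in all 4. Of the members tested in these lists and the gamma delta list, Epcam was called higher (log2 change 0.39) and Pecam1 lower (-0.33, lost without DP KO 2, DP control 1 or DP control 2 with adjusted p of 0.0545 to 0.124), and neither was called without the pair named as ISP.

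Sex-linked genes separated the genotypes too. Ddx3y measured 0 and 0.0907 RPKM in DP KO and 15.7 and 56.3 RPKM in DP control, and Eif2s3y 0 and 0.238 RPKM in DP KO and 21.9 and 88.7 RPKM in DP control. Kdm5d and Uty, the other Y-linked genes, were likewise at no more than 0.0315 RPKM in KO and at 3.71 to 14.2 RPKM in control. Xist, expressed from the inactive X chromosome, measured 25.5 and 25.6 RPKM in DP KO and 22.5 and 0.914 RPKM in DP control. Y-linked transcripts were thus near 0 in both KO libraries and present in both controls, and DP control 1 held both Xist and Y-linked transcripts. Sex and genotype cannot be told apart in these 4 libraries. Of the genes tested, 69 of 343 on the X chromosome and 4 of 4 on the Y chromosome were called, beside 21.9% of all genes. The X chromosome thus had no larger share of calls than all genes. Without both chromosomes 2417 genes were called.

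The genotype difference in DP cells was set against that in ISP cells from thymi treated alike. The difference of the 2 differences was called for 474 genes (4.19%), 415 above 0 (3.67%) and 59 below 0 (0.522%), and 444 of the 474 were also called in DP. In ISP cells 40 genes (0.354%) were called between genotypes, and in CD25-positive cells 9 (0.0796%). Pdlim4 measured 181 and 154 RPKM in ISP KO and 116 and 105 RPKM in ISP control, a log2 change of 0.59, and the change in DP exceeded it by 2.24 (SE 0.20, adjusted p = 0.00115). Its level in DP KO was thus near that of ISP cells, while DP control lay far below them. Acoxl and Ccnd2 differed in the same direction, with DP exceeding ISP by 2.04 (SE 0.24, adjusted p = 0.00536) and 1.33 (SE 0.19, adjusted p = 0.00812).

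Cell cycle genes carried many of these differences. Of the S phase genes 32 of 45, and of the G2 and mitosis genes 35 of 56, had a change in DP above that in ISP, beside 3.67% of all genes tested, and their median log2 changes in ISP were -0.06 and -0.13. Myc rose by 0.92 in DP and had a log2 change of 0.19 in ISP, at 152 and 153 RPKM in ISP KO and 130.2 and 138 RPKM in ISP control (difference 0.74, SE 0.11, adjusted p = 0.0101). Il2ra measured 43.3 and 44.7 RPKM in ISP KO and 29.9 and 24.2 RPKM in ISP control, so that its change was 0.69 in ISP and -0.66 in DP (difference -1.35, SE 0.22, adjusted p = 0.0122). The sign of the Il2ra difference between genotypes was therefore opposite in the 2 populations, although the ISP change alone did not pass (adjusted p = 0.091). Of the 8 ribosomal, 5 oxidative phosphorylation and 3 cholesterol synthesis genes that also differed, the change in DP was above that in ISP for each.

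The other lists had at most 3 such members each. Among genes that BCL6 represses, 3 had a change in DP above that in ISP, and among migration and egress genes 1 lay above and 2 below it, beside 3.67% and 0.522% of all genes. Of the 30 interferon response genes 0 differed in their change between DP and ISP by limma at the adjusted threshold (4 at an unadjusted p under 0.05, 0 by voom), and their median log2 change was 0.67 in DP and 0.62 in ISP, where 6 were called. Oas2, for example, changed by 1.26 in DP and 1.29 in ISP (difference -0.04, SE 0.26). Of 33 DP stage genes 1 differed, and the median change in ISP was -0.14. Dntt fell by 0.69 in DP and had a log2 change of -0.70 in ISP (adjusted p = 0.0851). The count of 474 was 1017 without DP KO 1, 105 without DP KO 2, 92 without DP control 1, 146 without DP control 2 and 7 without the pair named as ISP, of which Pdlim4 and Il2ra were named above.

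**Figure D4:**
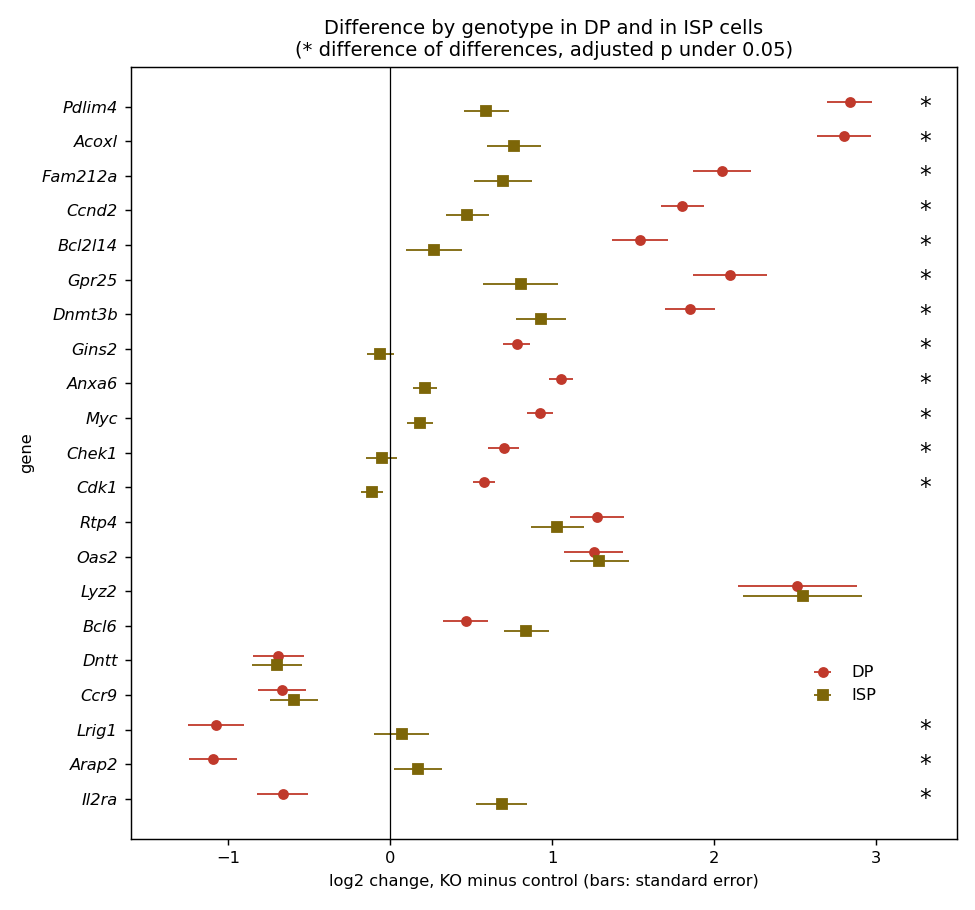
Log2 change by genotype, KO minus control, with its standard error, for 21 genes in DP (red circles) and ISP cells (brown squares); a star marks genes whose changes differ between DP and ISP with adjusted p under 0.05. Pdlim4 lies at 2.84 in DP and 0.59 in ISP, Oas2 at 1.26 and 1.29, and Il2ra at -0.66 and 0.69.

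Set against stage, the group levels of DP KO lay between those of ISP and DP control for several lists. The mean log2(RPKM + 1) of S phase genes was 6.69 to 6.71 in ISP KO and 6.76 to 6.77 in ISP control, and it was 5.97 and 6.08 in DP KO and 5.56 and 5.56 in DP control. For ribosomal protein genes the DP values were 7.79 and 7.83 in KO and 7.54 and 7.55 in control, below all ISP and CD25 libraries (8.50 to 8.81). DP stage genes averaged 6.93 and 6.83 in DP KO and 7.11 and 7.12 in DP control, above the ISP libraries (5.90 to 6.07). G2 and mitosis genes departed from this order, since DP KO at 6.14 and 6.25 exceeded DP control at 5.81 and 5.86 and one DP KO library exceeded all ISP libraries (5.98 to 6.15). These levels are descriptions of lists that hold genes with very different lengths and levels, and no test was made of them.

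**Figure D5:**
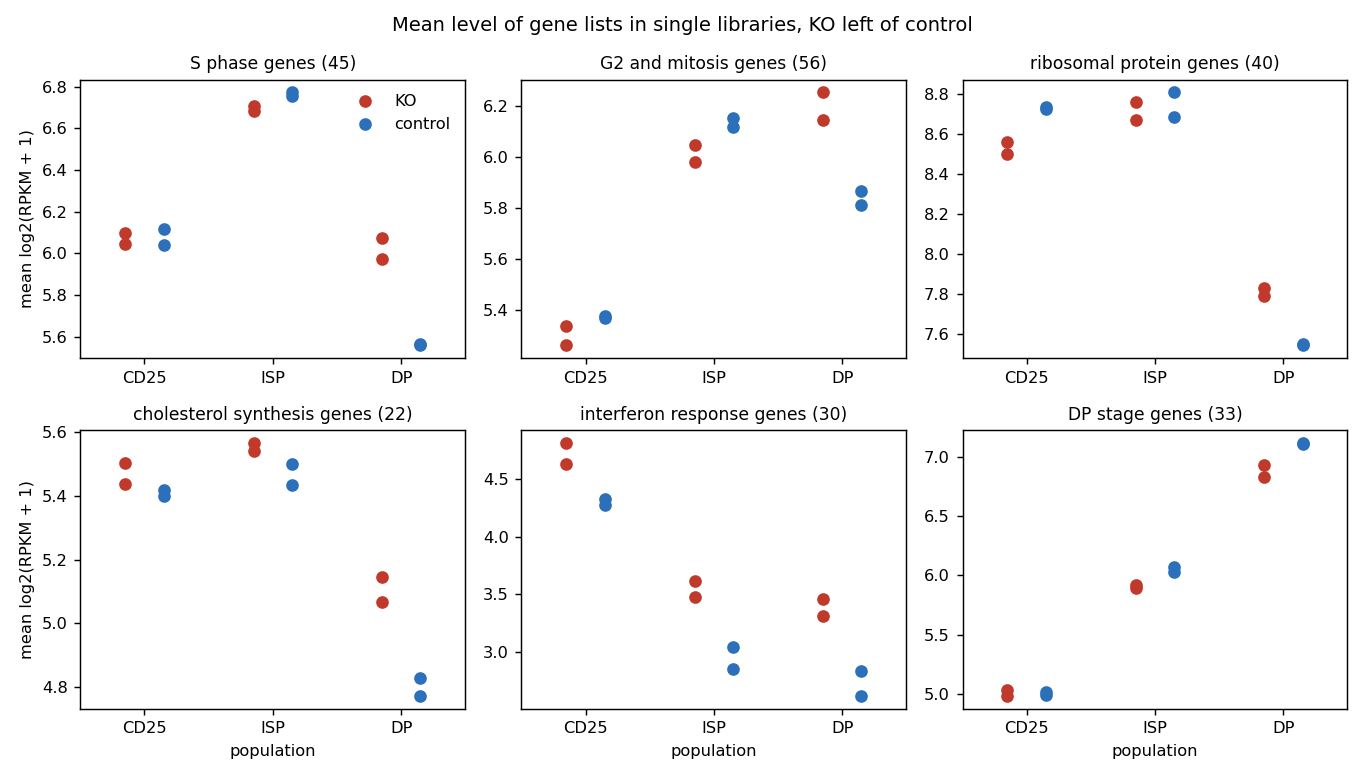
Mean log2(RPKM + 1) of 6 gene lists (vertical axis; numbers of genes in brackets) in each of the 12 libraries by population, with KO (red) left of control (blue); axes do not start at 0. In DP cells KO lies above control for S phase, G2 and mitosis, ribosomal protein, cholesterol synthesis and interferon response genes and below it for DP stage genes.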

How the data were processed

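RNA was sequenced from 12 thymocyte libraries in 6 groups of 2. The deposited values are RPKM per gene computed by the authors; the unit is not named in the table and was read from the values, and reads were aligned with BWA to GRCm38, per the submitters' processing notes. No source used here gives the counting tool, its annotation or its filters. The deposited RPKM are on a scale common to all libraries by the median of ratios. Depths were taken as those that gave whole gene lengths. For each gene the smallest length was then sought that made its values whole numbers of reads within 0.02 reads. One was found for all 169595 values above 0. For genes with few values above 0 such a length is easily found, so this does not check their counts. Recovered reads of such genes may be too low. The table held 24421 genes, 17114 of them above 0 in any library, and 27 names altered to dates.

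limma 3.58.1 in R 4.3.3 was fitted with an intensity trend to log2(RPKM + 1) of the 11303 genes that reached 1 RPKM in 2 or more libraries, over all 12 libraries in 6 groups (6 residual degrees of freedom), with Benjamini-Hochberg adjustment. The script was tested on simulated data with known changes. Genes named are Bcl6, the 15 largest rises and falls among called genes with at least 5 RPKM on the higher side and no overlap, the 10 largest rises and falls at 50 RPKM or more, up to 5 members of each list with the smallest p, and set stage and sex-linked genes; predicted genes were left out. The comparison, the gene lists and the named members were chosen with earlier results of these data known, and a few members beyond the rule were named after their values were seen. Promoter sequences and the search for TTCCNNGAA used RefSeq windows of GRCm38.p6. Alternatives were other pseudocounts, filters, scalings and sample sets, a replicate block, and limma's voom on the recovered reads. The 3 alternatives that drop sex chromosomes, drop the libraries named as ISP or require no overlap were chosen after the data were seen.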

Additional observations from a re-analysis of the deposited data

Results flagged for a closer look

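Of 137 genes examined one by one, 39 changed differently by genotype in DP and ISP cells. The test was limma's on the difference itself (adjusted p under 0.05), which 4.19% of all genes tested passed. Most of the 137 were picked by their change in DP, and the test uses the same DP libraries. The 39 are thus not independent of that choice, and their share cannot be compared with that of all genes. Each value below is the log2 change in DP minus that in ISP. Beside Il2ra (-1.35), Pdlim4 (2.24), Acoxl (2.04), Ccnd2 (1.33) and Myc (0.74), given above, the differences of the cell cycle genes were 0.84 for Gins2, 0.75 for Chek1, 0.70 for Cdca7, 0.69 for Cdk1, 0.68 for Mcm3, 0.68 for Pcna, 0.66 for Aurka, 0.65 for Mcm5 and 0.61 for Cks2. Biosynthetic and mitochondrial genes differed by 0.78 for Shmt2, 0.57 for Cycs, 0.49 for Cyp51, 0.48 for Rpl5, 0.48 for Rpl3, 0.44 for Mvd and 0.43 for Rps2. Among the other genes with a larger rise in DP, the difference was 1.45 for Gh, 1.35 for Fam212a, 1.29 for Gpr25, 1.27 for Bcl2l14, 1.22 for Tyrobp, 1.19 for Snora64, 0.92 for Dnmt3b, 0.84 for Anxa6, 0.74 for Gzma, 0.71 for Fam169b, 0.67 for Arhgap9 and 0.50 for Selplg. Snora64, a short RNA, held only 7 and 9 reads in DP KO and 2 and 2 in DP control. It lies inside Rps2 on the same strand, so the reads of the 2 genes may not be separable. Genes that fell in DP and had ISP changes between 0.03 and 0.31, none of them called in ISP, differed by -1.36 for Kbtbd11, -1.26 for Arap2, -1.15 for Lrig1, -0.73 for Hs6st1, -0.44 for Stat3 and -0.40 for Itgal, an integrin gene. The test of the difference was passed without each of the 4 DP libraries in turn by 13 of the 39: Il2ra, Pdlim4, Acoxl, Ccnd2, Anxa6, Cdca7, Myc, Mcm5, Gins2, Mcm3, Pcna, Cks2 and Cdk1.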

How the results depend on the processing

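The count of 2476 genes called in DP stayed between 1918 and 2723 under both other pseudocounts, no filter, a 5 RPKM filter, the 8 anti-CD3 libraries alone, both other scalings and voom. It was 0 in the fit of the 4 DP libraries alone (0 higher and 0 lower), 824 to 2596 without 1 DP library (620 to 1663 higher and 204 to 933 lower), and 238 without the pair named as ISP (203 higher and 35 lower). A common sum per library gave 953 higher and 1770 lower, and shifted the scale by -0.11 on the log2 scale. The count for DP minus ISP was 185 without a filter, 302 in the 8 anti-CD3 libraries, 295 with a common sum, 92 to 1017 without 1 DP library and 7 without the pair named as ISP. The Bcl6 change lost its call with a pseudocount of 0.1 (0.47, adjusted p = 0.0515), without a filter (0.47, adjusted p = 0.0858), in the 4 DP libraries alone (0.47, adjusted p = 0.0906), with a common sum (0.36, adjusted p = 0.069) and without the pair named as ISP (0.27); without 1 DP library it ranged over 0.30 to 0.64. The causes were not tested. Titles share replicate numbers, but deviations of same-numbered libraries correlated at only 0.01 between DP KO and DP control, so the numbers were not taken to pair them. The same correlation was 0.125 between DP control and ISP control, whose same-numbered libraries also had like Xist and Ddx3y levels, 0.06 between DP KO and ISP KO, and -0.03 between ISP KO and ISP control. A replicate block within DP, which set same-numbered DP KO and DP control libraries together, gave 2488 genes called in DP. A separate fit with such blocks within DP and within ISP gave 443 for DP minus ISP. CD25 libraries were not blocked. No fit linked same-numbered DP and ISP libraries, so the test of DP minus ISP took them as independent. Of 132 called genes examined one by one, 78 were called without each DP library in turn and 43 without the pair named as ISP, and none of those retained by the filter changed direction under any alternative. Low genes rest on few reads, and 1 read per 1000 bases is worth 0.0819 to 0.1052 RPKM.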

Other observations

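A window of 1 Mb on each side of Bcl6 on chromosome 16 was looked at after values were seen. Of 9 genes tested in it, Bcl6 included, 6 were called higher in DP KO and 1 lower, beside 14.1% and 7.78% of all genes. The higher genes were Snord2, Rfc4, Rtp4, Bcl6, Lppos and Lpp, of which Snord2, Rfc4 and Bcl6 lost their calls without DP KO 2 (adjusted p = 0.324, 0.0934 and 0.279) and without DP control 2 (adjusted p = 0.0527, 0.0877 and 0.139). Snord2 and Bcl6 also lost them without DP control 1 (adjusted p = 0.287 and 0.104). Snord2 rests on 2 and 4 reads in DP KO and 0 and 1 in DP control. It lies inside Eif4a2, which was not called (log2 change -0.095). St6gal1, a sialyltransferase, was the one called lower, at 1.02 and 0.848 RPKM in DP KO and 3.52 and 3.33 RPKM in DP control (log2 change -1.20, limma adjusted p = 0.000813). Lpp and its divergent neighbour Lppos rose by 1.40 and 1.17, with Lppos at 3.64 and 5.05 RPKM in DP KO and 0.890 and 1.92 RPKM in DP control. The pair overlaps by annotation, and whether counting used strand is not given in the sources used here, so their reads may not be separable. Rtp4 is an interferon response gene and Rfc4 encodes a subunit of the clamp loader of DNA replication.

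Xist and Y-linked transcripts gave the same pattern in the titled DP and ISP control libraries of the same replicate number. Xist measured 22.5 RPKM in DP control 1 and 20.5 RPKM in ISP control 1, and 0.914 RPKM in DP control 2 and 0.766 RPKM in ISP control 2. Ddx3y measured 15.7 RPKM in DP control 1 and 7.28 RPKM in ISP control 1, and 56.3 RPKM in DP control 2 and 29.7 RPKM in ISP control 2. All 4 KO libraries of these populations had at most 0.0979 RPKM of Ddx3y.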
